A study of Rattus norvegicus with 47 samples.

Results

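The 10 genes described here belong to methyl group metabolism, followed here in the liver: Gnmt, Mat1a, Mat2a, Pemt, Gamt, Nnmt, Ahcy, Bhmt, Cbs and Cth. They were chosen by name for their place in methionine metabolism, out of 14217 genes named on the rat array, with earlier results of these data known. Counts of called members beside the share of all probe sets are therefore no independent test of the group. The array's annotation held all 10, on 12 of its 31099 probe sets. Mat2a had 3 probe sets and every other member had 1, and each gene was followed through its probe set with the highest mean.

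In this cycle a methionine adenosyltransferase joins methionine to ATP and makes S-adenosylmethionine, the methyl donor of most methylation reactions. Methyltransferases pass the methyl group on and leave S-adenosylhomocysteine, which is hydrolysed to homocysteine. Homocysteine is either methylated back to methionine or drained through transsulfuration to cysteine. Glycine N-methyltransferase, the product of Gnmt, is an abundant liver enzyme that disposes of surplus methyl groups as sarcosine, and retinoids given to rats are known to raise its activity.

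The livers came from 47 female Sprague-Dawley rats aged 8 weeks, 1 rat per array, in 13 groups of 3 experiments on vitamin A. In the diet experiment, pups of dams kept on a vitamin A-deficient purified diet ate that diet from weaning with no retinol (deficient, n = 5), 0.4 mg retinol per kg (marginal, n = 7), 4 mg per kg (adequate, n = 6) or 100 mg per kg (supplemented, n = 2). In the second experiment, rats raised deficient in the same way were killed after vehicle at 0 h (n = 3) or at 3 h (n = 3), 6 h (n = 3), 10 h (n = 4) and 16 h (n = 3) after about 100 µg of all-trans-retinoic acid, the active acid form of vitamin A. In the third, rats on stock diet received an oil and ethanol vehicle and no food for 16 h, then isoflurane and about 25 µg of albumin-bound all-trans-retinoic acid into an iliac vein, and were killed at 30, 60 or 90 min (n = 3 each) or as vehicle controls at 0 min (n = 2). Vehicle rats stand only at time 0, so retinoic acid cannot be told apart from hours since handling, time of day or recovery from anaesthesia. The sample titles call these controls untreated, whereas the protocols say that they had vehicle.

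The deposited values are log2 signals centred on each array's median, so that 0 is the median probe set of an array, and 1 unit is a doubling. The median signal stood 10.0-fold to 69.8-fold above an array's own floor, and no array had a member's followed probe set at the floor. The 6 hepatocyte markers averaged 7.19 to 8.90 on the log2 scale over the 47 arrays, against -4.77 to -0.53 for 3 kidney markers. Cyp26a1, the enzyme that degrades retinoic acid, rose after the dose, with mean log2 signals of -2.25 with vehicle, 4.04 at 3 h and 6.42 at 6 h, and fell in deficient livers, at -1.58, against 0.38 in adequate livers. The vehicle and deficient means lie in the range of the kidney markers and are not shown to be above background, so no fold is given. At 16 h, replicates 1 and 2 stood apart: they correlated with the mean of the other groups at 0.740 and 0.797, against 0.858 for replicate 3 and 0.851 to 0.904 for the other arrays of the course. Values without replicates 1 and 2 therefore set 1 rat, replicate 3, against the other groups, and it is assumed to vary as they do. Of the 3 vehicle rats, replicate 2 had the highest Lrat (2.62, against -0.39 and -4.18) and Rarb (4.32, against 3.25 and 3.52), 2 genes that retinoic acid induces, while its Cyp26a1 of -1.14 lay between the others. The median change of all genes, each by 1 probe set, was -0.49 at 16 h against vehicle, -0.23 at 10 h and -0.16 in deficient against adequate livers, so changes are also given relative to it. The diet arrays fall into 2 runs of database identifiers, of 12 and 8 arrays, and the run was a term of the diet fit. Deficient replicate 5 was counted in run 1, although its identifier lies well apart from the others of that run. It is 1 of the 2 deficient rats of run 1, so deficient values within that run rest partly on this choice. No label says what the runs stand for. A change is called where limma's Benjamini-Hochberg adjusted p, over all probe sets tested in that experiment, was under 0.05.

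Promoter sequences were available from RefSeq (build GRCr8) for 9 of the 10 members, all except Nnmt, as 300 bases that run from 250 before the gene's start to 50 after it. Those of Gnmt and Pemt, which moved in opposite directions after retinoic acid, are shown 5′ to 3′ along the gene. Gnmt lies on the plus strand at chr9:21752032-21752331 and Pemt on the minus strand at chr10:45341898-45342197. Capitals mark each copy of the hexamer AGGTCA, of its variant GGGTCA, of the variant AGTTCA and of the variant GGTTCA, searched on both strands, to which nuclear receptors such as the retinoic acid receptors are known to bind in pairs.
Gnmt: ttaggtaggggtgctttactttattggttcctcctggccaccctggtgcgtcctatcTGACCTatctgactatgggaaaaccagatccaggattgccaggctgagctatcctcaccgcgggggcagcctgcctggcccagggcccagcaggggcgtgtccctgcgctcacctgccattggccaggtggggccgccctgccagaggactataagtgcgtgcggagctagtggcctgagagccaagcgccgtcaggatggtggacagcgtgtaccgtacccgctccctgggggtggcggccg
Pemt: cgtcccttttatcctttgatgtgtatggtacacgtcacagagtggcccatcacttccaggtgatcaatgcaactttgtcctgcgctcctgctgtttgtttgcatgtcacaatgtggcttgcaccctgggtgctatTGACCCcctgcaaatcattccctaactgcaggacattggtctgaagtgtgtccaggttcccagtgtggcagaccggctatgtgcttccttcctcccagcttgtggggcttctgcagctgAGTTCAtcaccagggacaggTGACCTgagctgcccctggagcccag
Gnmt has 1 such hexamer and Pemt has 3, none of which overlap. A hexamer occurred in 4 of the 9 member promoters (Gnmt, Bhmt, Ahcy and Pemt) and in 44.4% of all 33469 rat promoters of the same length, so its presence is common. A tandem pair of these hexamers with 1, 2 or 5 bases between was in 0 of the 9, against 0.233%, 0.17% and 0.382% of all promoters. At shares this low almost any 9 promoters would hold 0, so the absence does not set the members apart. The letters TATAAA, also searched on both strands, were in the Mat2a and Bhmt promoters and in 14.2% of all promoters. A match describes these letters only and is no evidence of binding.

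After retinoic acid in deficient rats, Gnmt rose and Pemt, which makes phosphatidylcholine by methylating phosphatidylethanolamine, fell, both at 10 h and at 16 h. Cbs, which commits homocysteine to transsulfuration, and Gamt, which makes creatine by methylating guanidinoacetate, fell at 16 h. No member passed the test at 3 h or 6 h. The called members were 2 of 10 at 10 h, when 0.488% of all probe sets tested were called, and 4 of 10 at 16 h, when 6.11% were. At 3 h 0.0762% of all probe sets were called, and 2 members had an unadjusted p under 0.05, as did 3.27% of all. At 6 h 0.201% were called, and 1 member had an unadjusted p under 0.05, as did 5.11% of all. These are whole livers, in which fewer cells of a type and less RNA per cell cannot be told apart.

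**Figure D1:**
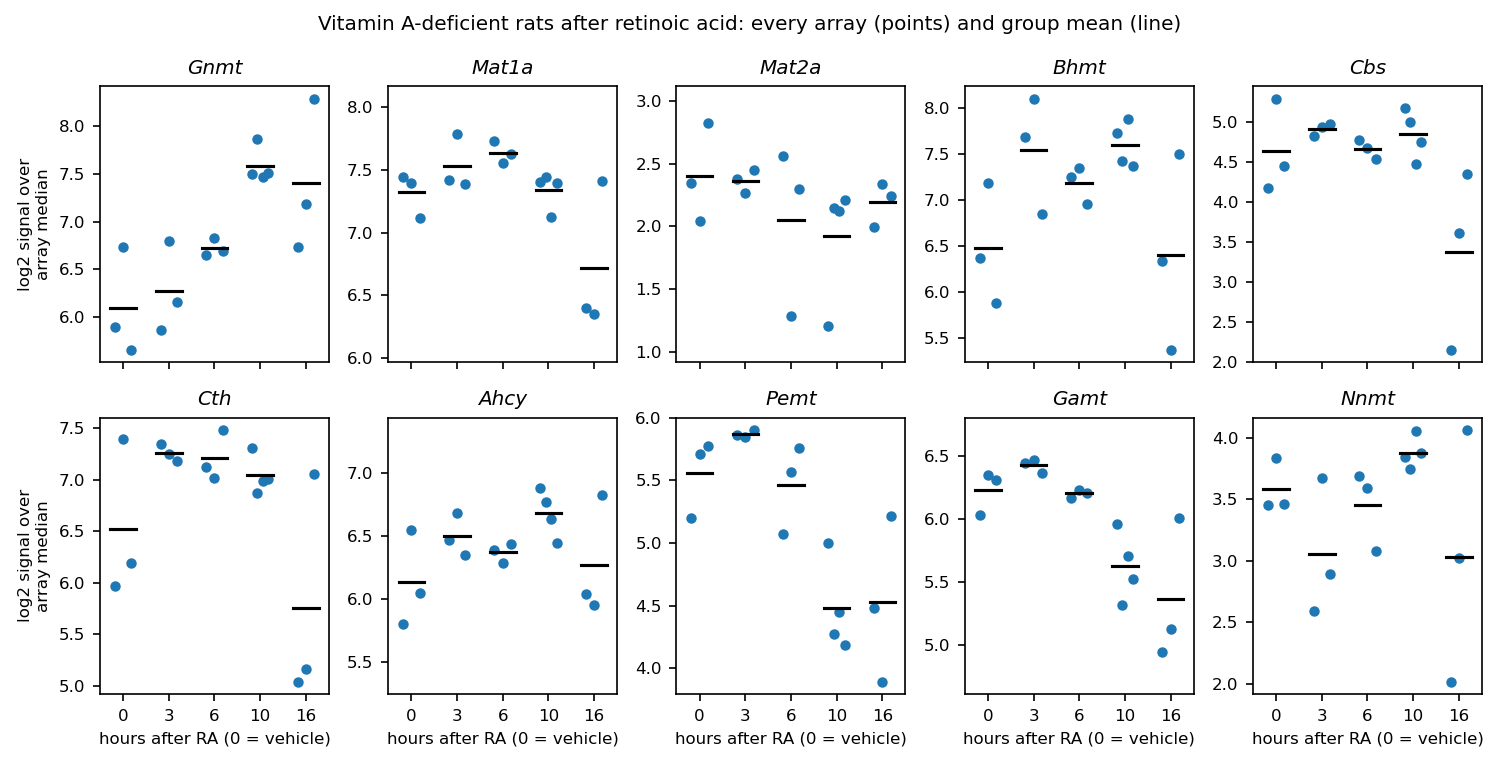
Log2 signal (array median = 0) of each of the 10 genes on all 16 arrays of the retinoic acid time course, against hours after the dose, with vehicle at 0 h. Points are single rats and short lines are group means. Gnmt is above every vehicle rat in all 4 rats at 10 h, and Pemt is below every vehicle rat in the same 4.

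Gnmt had log2 signals of 5.89, 6.73 and 5.66 in the vehicle livers. It had 5.87, 6.80 and 6.16 at 3 h and 6.66, 6.83 and 6.69 at 6 h. It then stood at 7.50, 7.86, 7.46 and 7.51 at 10 h and at 6.73, 7.18 and 8.28 at 16 h. All 4 rats at 10 h lay above every rat at 0, 3 and 6 h, whereas the 16 h rats were widely spread and the lowest of them met the highest vehicle rat. Against vehicle the change was 0.63 ± 0.29 at 6 h (log2 ± SE, adjusted p = 0.932), 1.49 ± 0.28 at 10 h (2.81-fold, adjusted p = 0.0063) and 1.30 ± 0.29 at 16 h (2.47-fold, adjusted p = 0.0107). Relative to the median change of all genes it was 1.72 at 10 h and 1.79 at 16 h. The step between 6 h and 10 h was 0.86 ± 0.28 and did not pass the test (adjusted p = 0.397), nor did the mean over all retinoic acid times, at 0.90 ± 0.23 (adjusted p = 0.141). Over those times 0.17% of all probe sets were called, and 3 members had an unadjusted p under 0.05, beside 7.47% of all. Both calls were lost without vehicle replicate 3, the lowest of its group, at 1.27 (adjusted p = 0.117) and 1.09 (adjusted p = 0.0985), and both without an intensity trend in the variance model (adjusted p = 0.377 and 0.177), a setting that left 2 calls among all probe sets at 10 h and 40 at 16 h, and none among the members. The 16 h value depends on which rats are kept: it was 0.86 ± 0.26 without replicate 3 (adjusted p = 0.0206), the highest Gnmt signal of the group, and 2.19 ± 0.33 for replicate 3 alone (n = 1, adjusted p = 0.000926). Vehicle replicate 2 had the highest Gnmt of its group, and without it Gnmt changed by 1.81 at 10 h (adjusted p = 0.000725) and 1.62 at 16 h (adjusted p = 0.0068), while the calls among all probe sets at 16 h dropped to 215, against 1765 with it.

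Pemt had log2 signals of 5.20, 5.71 and 5.78 with vehicle, 5.86, 5.85 and 5.90 at 3 h and 5.07, 5.57 and 5.76 at 6 h. At 10 h it had 5.00, 4.27, 4.45 and 4.19, and at 16 h 4.48, 3.89 and 5.21. The 10 h rats were all below the vehicle rats, and at 16 h only replicate 3 reached their range. The changes were -1.09 ± 0.25 at 10 h (adjusted p = 0.0382) and -1.03 ± 0.27 at 16 h (adjusted p = 0.0212), or -0.86 and -0.55 relative to the median of all genes. The 10 h call ended in 9 of 16 fits that left out 1 array: without a 3 h array (3 fits), 6 h replicate 2, 10 h replicates 2, 3 or 4, or vehicle replicates 2 or 3, the last giving the highest adjusted p (0.351). The 16 h call ended after quantile normalization, at -0.42 (adjusted p = 0.339), and with replicate 3 alone, at -0.35 (adjusted p = 0.802), as it did without replicate 1 (-1.01, adjusted p = 0.0685), replicate 2 (-0.72, adjusted p = 0.135), vehicle replicate 2 (-0.96, adjusted p = 0.116) or vehicle replicate 3 (-0.93, adjusted p = 0.127).

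The other methyltransferases took separate courses. Gamt had log2 signals of 6.04, 6.35 and 6.31 with vehicle, 6.37 to 6.47 at 3 h and 6.17 to 6.23 at 6 h. It had 5.96, 5.32, 5.71 and 5.53 at 10 h and 4.94, 5.13 and 6.01 at 16 h. Every 10 h and 16 h rat was below every vehicle rat, narrowly so for the nearest. The change was -0.60 ± 0.21 at 10 h (adjusted p = 0.277) and -0.87 ± 0.23 at 16 h (adjusted p = 0.022), or -0.38 relative to the median of all genes. The 16 h call ended after quantile normalization (-0.36, adjusted p = 0.182) and without 16 h replicate 1 (-0.66, adjusted p = 0.144), replicate 2 (-0.76, adjusted p = 0.0911), vehicle replicate 2 (-0.81, adjusted p = 0.115) or vehicle replicate 3 (-0.83, adjusted p = 0.113). Nnmt, which methylates nicotinamide, had 3.45, 3.83 and 3.46 with vehicle, 3.75 to 4.06 at 10 h and 2.02, 3.03 and 4.06 at 16 h. Its groups overlapped, and its 16 h change of -0.55 ± 0.34 did not pass the test (adjusted p = 0.371).

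The enzymes that supply S-adenosylmethionine and clear its product gave no call against vehicle. Mat1a, the liver's own methionine adenosyltransferase, had log2 signals of 7.44, 7.40 and 7.11 with vehicle, 7.12 to 7.44 at 10 h and 6.40, 6.35 and 7.41 at 16 h. Mat2a, the form most other tissues use, spanned 2.00 to 2.34 at 16 h, against 2.04 to 2.83 with vehicle, and its other probe sets, each at the floor on 1 array, were not called. Ahcy, which hydrolyses S-adenosylhomocysteine, had 6.89, 6.77, 6.64 and 6.44 at 10 h, against 5.80, 6.55 and 6.05 with vehicle. Mat1a at 16 h was low in replicates 1 and 2 and within the vehicle range in replicate 3, while Ahcy overlapped vehicle at 10 h through 1 rat. The Ahcy change of 0.55 ± 0.21 at 10 h (adjusted p = 0.352) passed after quantile normalization, at 0.72 (adjusted p = 0.00141), and so did the 16 h change, which was 0.14 ± 0.23 as deposited (adjusted p = 0.785) and 0.62 after it (adjusted p = 0.0137).

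Bhmt, which returns homocysteine to methionine with a methyl group from betaine, had log2 signals of 6.38, 7.19 and 5.89 with vehicle, 7.69, 8.11 and 6.85 at 3 h, 7.26, 7.35 and 6.96 at 6 h, 7.73, 7.43, 7.88 and 7.37 at 10 h and 6.34, 5.38 and 7.50 at 16 h. All 10 h rats were above all vehicle rats, but the vehicle rats themselves ranged widely. The change of 1.12 ± 0.33 at 10 h was not called (adjusted p = 0.158), and was called after quantile normalization (1.22, adjusted p = 0.0307) and without 16 h replicates 1 and 2 (1.12, adjusted p = 0.0192).

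In transsulfuration, Cbs had log2 signals of 4.18, 5.29 and 4.44 with vehicle, 5.18, 5.00, 4.47 and 4.75 at 10 h and 2.15, 3.61 and 4.34 at 16 h. Cth, which splits cystathionine into cysteine, had 5.97, 7.39 and 6.19 with vehicle, 7.35, 7.25 and 7.18 at 3 h and 5.04, 5.16 and 7.05 at 16 h. Both had their lowest values in 16 h replicates 1 and 2, and replicate 3 lay among the vehicle rats for both. Cbs changed by -1.27 ± 0.34 at 16 h against vehicle (adjusted p = 0.0248), or -0.78 relative to the median of all genes, and by -1.48 ± 0.32 at 16 h against 10 h (adjusted p = 0.0175), the 1 member of 10 called in that comparison, where 0.807% of all probe sets were. Cth changed by -0.77 at 16 h against vehicle and was not called. The Cbs call against vehicle ended after quantile normalization (-0.68, adjusted p = 0.25), with 16 h replicate 3 alone (-0.29, adjusted p = 0.854), without replicate 1 alone (-0.66, adjusted p = 0.212) and without vehicle replicate 2 (-0.94, adjusted p = 0.194) or vehicle replicate 3 (-1.37, adjusted p = 0.0807). The call against 10 h ended with 16 h replicate 3 alone (-0.51, adjusted p = 0.824), without 16 h replicate 1 (-0.88, adjusted p = 0.148) and without 10 h replicate 1 (-1.38, adjusted p = 0.0815) or 10 h replicate 2 (-1.43, adjusted p = 0.0637).

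The 16 h values of Pemt, Gamt and Cbs moved with the arrays that stood apart. With replicates 1 and 2 left out, and so 1 rat at 16 h, Gnmt was the only member called there, and Gamt was -0.22 (adjusted p = 0.861). With replicate 3 left out instead, 7 of the 10 were called, Mat1a, Cth and Nnmt among them. That fit keeps the 2 arrays that stood apart. The share of all probe sets called in it is not given here, so the count is no result about the members. Among the marker lists at 16 h against vehicle, 2 of 5 Kupffer cell genes, 1 of 7 stellate cell genes and 1 of 5 sinusoidal endothelial genes fell, as did 1 of 3 B cell and 1 of 7 pancreatic acinar genes, and 1 of 6 hepatocyte genes rose. The mean log2 signal of the Kupffer list was 2.94 to 3.43 at 16 h, against 3.79 to 4.14 with vehicle, and that of the hepatocyte list was 7.85 to 8.10 at 16 h, against 7.74 to 7.99 with vehicle. The stellate list stood at -1.11 to 0.28 at 16 h, against 0.53 to 1.20 with vehicle, and the endothelial list at 2.04 to 2.95, against 2.72 to 3.41. At 10 h 1 of 3 B cell genes fell and no gene of another list was called. The stellate list stood at 0.27 to 0.51 at 10 h, below every vehicle rat, the Kupffer list at 3.26 to 3.90 and the hepatocyte list at 7.64 to 7.86. Their part in the members' changes at 10 h and 16 h was not tested.

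**Figure D2:**
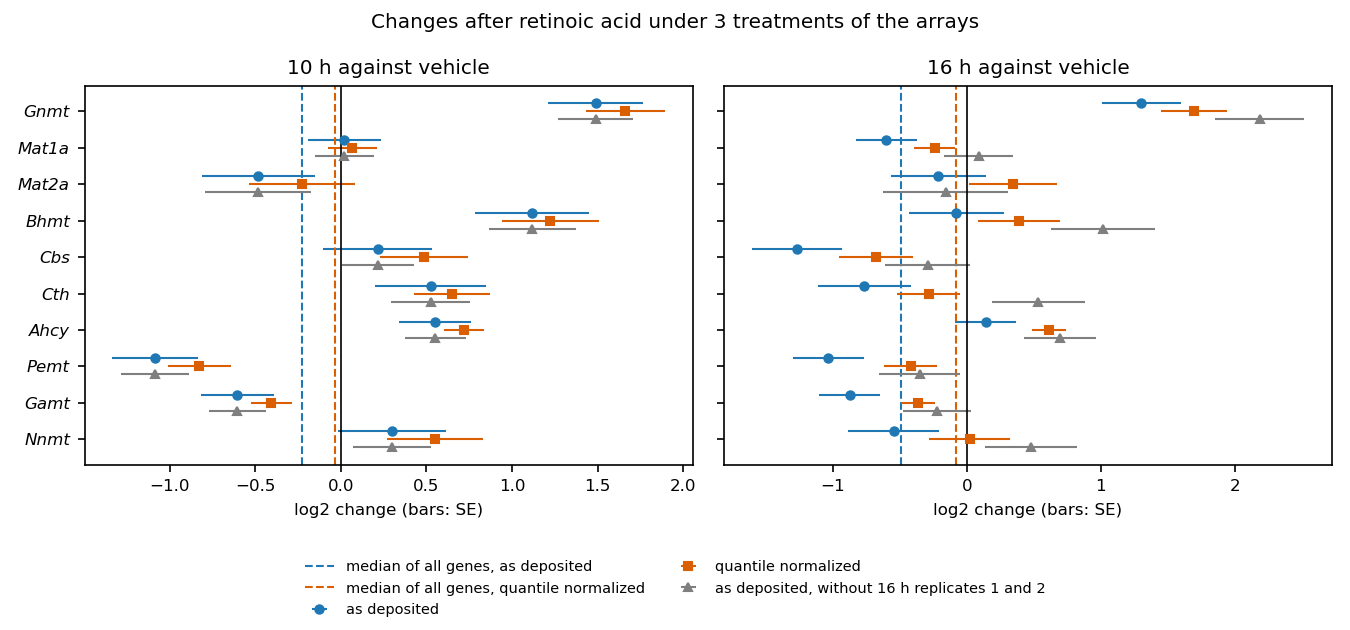
Log2 change (± SE) of each gene against vehicle at 10 h and 16 h, as deposited, after quantile normalization and without 16 h replicates 1 and 2 (1 rat left at 16 h), with dashed lines at the median change of all genes. Gnmt is above 0 by 1.30 to 2.19 in each setting, whereas Pemt, Gamt and Cbs at 16 h lie nearer 0 in the other settings than as deposited.

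The times were also set against each other. Between 3 h and 16 h, 7 of 10 members were called, where 8.7% of all probe sets were: Gnmt was 1.12 higher at 16 h, while Mat1a (-0.81), Bhmt (-1.15), Cbs (-1.55), Cth (-1.51), Pemt (-1.34) and Gamt (-1.07) were lower, with adjusted p between 0.0028 and 0.0409. Over the 16 fits that left out 1 array, Pemt and Gamt were called in all 16, Cbs in 15, Cth in 14, Gnmt in 13, Mat1a in 11 and Bhmt in 7. Gnmt ranged from 0.68, without 16 h replicate 3 (adjusted p = 0.0676), to 1.46, and its call also ended without 3 h replicates 1 or 3. Cbs came nearest to 0 without 16 h replicate 1 (-0.94, adjusted p = 0.0512) and Bhmt without 16 h replicate 2 (-0.63, adjusted p = 0.313). With 16 h replicate 3 alone, 1 member was called in this comparison. At 6 h against 3 h no member was called (0.0208% of all probe sets were) and none had an unadjusted p under 0.05 (4.75% did). At 10 h against 6 h no member was called (0.135% were) and 3 had an unadjusted p under 0.05 (6.83% did), among them Pemt with -0.99 (adjusted p = 0.137).

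In the diet experiment, which asks how a lasting vitamin A supply sets the level of these genes, no member passed the test in deficient against adequate livers (0 of 10, with 1.08% of all probe sets called). At an unadjusted p under 0.05, 2 of 10 members and 12.7% of all probe sets passed. Gnmt had the largest difference of the 10 followed probe sets. The Gnmt log2 signal was 3.89, 4.76, 5.38, 6.30 and 6.05 in deficient livers. It was 5.58, 6.10 and 6.50 (lowest, median and highest) in marginal, 5.77, 6.31 and 7.14 in adequate, and 6.57 and 7.00 in supplemented livers. The deficient rats were the most spread and 2 of them reached the adequate range, while the means over both runs were 5.28 ± 0.98, 6.09 ± 0.32, 6.34 ± 0.52 and 6.79 ± 0.30 (SD) in deficient, marginal, adequate and supplemented livers. The runs are not shared evenly: run 2 held 3 of the 5 deficient, 3 of the 7 marginal, 2 of the 6 adequate and 0 of the 2 supplemented rats, and its Gnmt means were lower. Within run 1 the means were 6.17, 6.31, 6.61 and 6.79 in the same order, and within run 2 they were 4.68, 5.80 and 5.80. The neighbours marginal and adequate, and adequate and supplemented, differed by less than the larger SD of each pair over both runs.

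The Gnmt change in deficient against adequate livers was -0.83 ± 0.23 (95% interval -1.30 to -0.36, adjusted p = 0.0768). It was called without deficient replicate 4 (-0.995, adjusted p = 0.0144) or deficient replicate 3 (-0.94, adjusted p = 0.0406). Within the runs it was -0.44 ± 0.26 in run 1 and -1.12 ± 0.33 in run 2, and without deficient replicates 1, 2 and 5 and adequate replicate 5 it was -0.36 (adjusted p = 0.834). These 4 were the diet arrays that correlated least with the mean of the other groups, at 0.842 to 0.875, against 0.898 or more for the rest. Marginal against deficient livers gave 0.66 ± 0.22 (adjusted p = 0.126) and supplemented against deficient livers 0.98 ± 0.33 (adjusted p = 0.301), the 2 supplemented rats lying above all 5 deficient ones. The trend over the 4 diets was 0.31 ± 0.10 per level (adjusted p = 0.309). The shares of all probe sets called in these 3 comparisons were 1.69%, 0.42% and 0.359%, and no member was called. At an unadjusted p under 0.05 they held 1, 3 and 3 of the 10 members, beside 15.4%, 8.62% and 7.92% of all probe sets. Marginal and supplemented against adequate livers had 0 members called, with 0% and 0.0109% of all probe sets, and 0 at an unadjusted p under 0.05, with 3.32% and 3.63% of all.

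**Figure D3:**
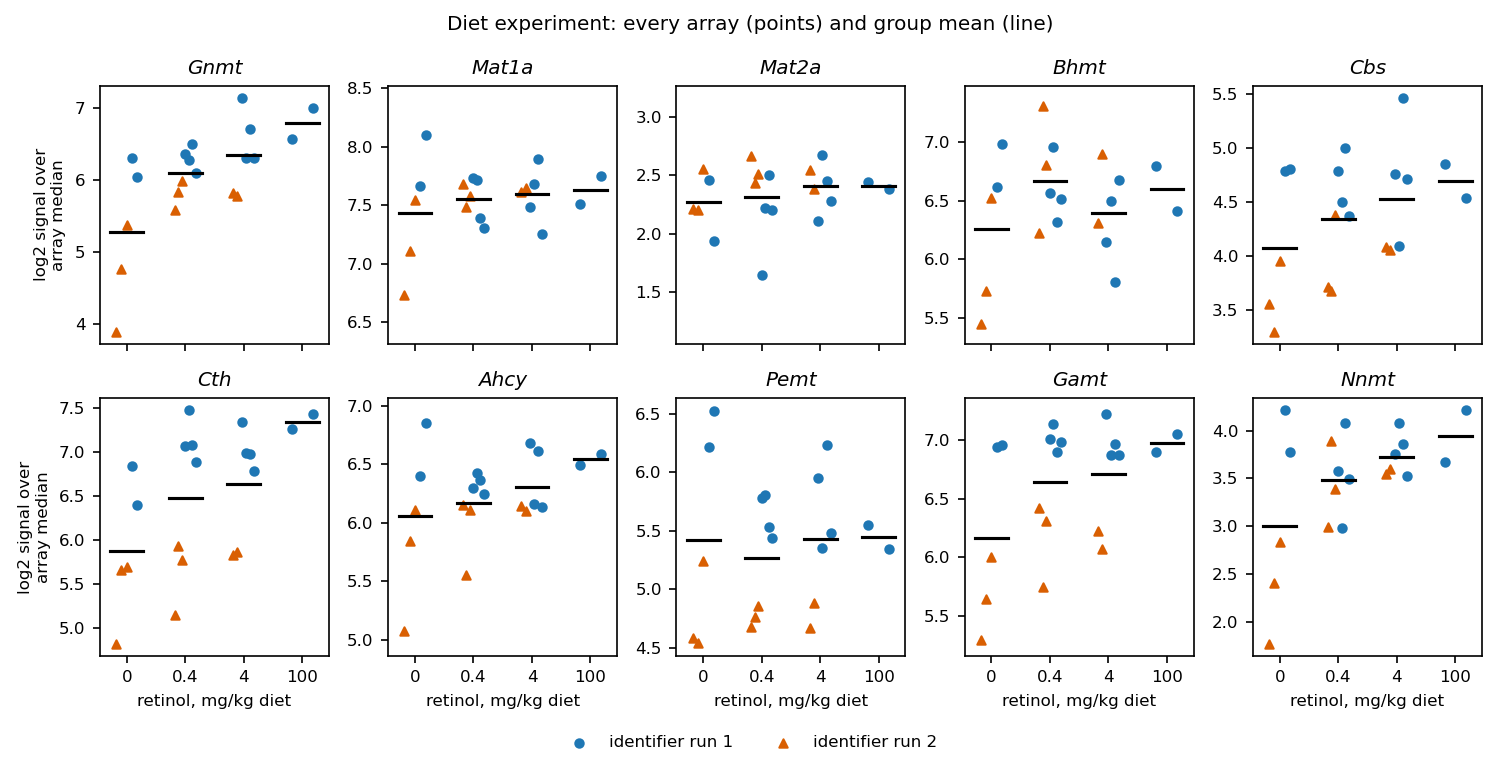
Log2 signal (array median = 0) of the 10 genes by dietary retinol (0, 0.4, 4 and 100 mg per kg), with blue circles for the 12 rats of run 1 and orange triangles for the 8 rats of run 2. The deficient rats of run 2 hold the lowest Gnmt values, 3.89 to 5.38.

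Among the other members, Nnmt had log2 signals of 1.77, 2.41, 2.84, 4.21 and 3.78 in deficient livers and 3.52, 3.68 and 4.07 (lowest, median and highest) in adequate livers. The 3 deficient rats of run 2 were below every adequate rat whereas the 2 of run 1 were among or above them. The change was -0.57 ± 0.26 over both runs (adjusted p = 0.348), 0.19 in run 1 and -1.24 ± 0.30 in run 2 (adjusted p = 0.0375), and the difference between the runs, -1.43 ± 0.43, did not pass the test (adjusted p = 0.297). That difference was called for 0 members and 0.044% of all probe sets, and had an unadjusted p under 0.05 for 2 members and 11% of all. Pemt had 4.58, 4.54, 5.25, 6.21 and 6.52 in deficient livers and 4.67, 5.42 and 6.23 in adequate livers, which overlapped. Its change was 0.29 ± 0.19 (adjusted p = 0.568), against 0.58 ± 0.13 after quantile normalization (adjusted p = 0.0167), where it was called. The remaining 7 members changed by -0.40 (Cth) to -0.11 (Bhmt and Ahcy) and none was called. Over the 10 members 9 changes were negative with a median of -0.21, beside -0.16 for all genes. Among the marker lists 1 of 7 stellate cell and 1 of 7 acinar genes fell in deficient livers, and 0 of 5 Kupffer cell and 0 of 2 erythroid genes did. The mean log2 signal of the Kupffer list was 2.90, 2.86 and 3.21 in the deficient rats of run 2 and 4.63 and 4.32 in those of run 1, against 3.56 to 4.21 in adequate livers. That of the erythroid list was 3.26, 3.22 and 3.16 in run 2 and 4.41 and 4.37 in run 1, against 3.66 to 4.71. The deficient rats with the lowest Gnmt and Nnmt thus also had the lowest Kupffer and erythroid levels of these groups. Other lists did not all follow. In deficient rats the cholangiocyte list was higher in run 2 (1.45, 0.53 and 0.0995) than in run 1 (-0.13 and -1.23), as was the stellate list. The endothelial list was mixed, at 2.16, 2.24 and 2.82 in run 2 and 3.20 and 2.26 in run 1. The B cell list was lower in run 2 in deficient and adequate rats alike. The arrays of the deficient rats of run 2 also had a narrower spread of values. The SD over an array's probe sets was 1.95, 2.08 and 2.32 in the deficient rats of run 2 and 2.65 and 2.56 in those of run 1. It was 2.44 to 2.58 in adequate livers. Within run 2 it was 2.33, 2.37 and 2.42 in marginal and 2.44 and 2.49 in adequate livers, so deficient replicate 3 lay close to its run. The part of the cell types and of the array spread in these changes was not tested.

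In the stock-diet rats given retinoic acid into a vein, Nnmt was the 1 member of 10 to rise, over all 3 times together, where 0.29% of all probe sets were called. Its log2 signal was 2.60 and 2.94 in vehicle livers, 3.75, 3.71 and 3.73 at 30 min, 3.37, 3.90 and 3.70 at 60 min and 3.67, 3.49 and 3.16 at 90 min. All 9 treated rats were above both vehicle rats, and the 3 rats at 30 min lay close together. The change over all times was 0.84 ± 0.16 (95% interval 0.51 to 1.17, adjusted p = 0.0363), or 0.97 relative to the median change of all genes. At single times it was 0.96 ± 0.18 at 30 min (adjusted p = 0.088), 0.89 at 60 min (adjusted p = 0.0524) and 0.67 at 90 min (adjusted p = 0.169), and no member was called at any of them, with 0.0879%, 0.387% and 0.505% of all probe sets called. At an unadjusted p under 0.05 these times held 1, 1 and 2 members, beside 8.94%, 10.1% and 10.7% of all probe sets. The call rests on 2 vehicle rats: without replicate 1 the change was 0.67 (adjusted p = 0.434) and without replicate 2 it was 1.01 (adjusted p = 0.0786), and it was lost in 5 of the other 9 fits that left out 1 array (each of the 30 min rats, 60 min replicate 3 and 90 min replicate 2, adjusted p = 0.0574 to 0.0696) and without an intensity trend (adjusted p = 0.306). No marker list had a called gene over all times in this experiment.

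Gnmt itself had log2 signals of 5.36 and 6.01 with vehicle, 6.24, 6.14 and 5.38 at 30 min, 5.75, 6.27 and 5.54 at 60 min and 6.18, 5.76 and 6.16 at 90 min. The groups overlapped throughout, and the change over all times was 0.25 ± 0.23 (adjusted p = 0.759). Cyp26a1 rose at 60 and 90 min in the same livers, with mean log2 signals of 4.47 and 4.64, against -0.97 with vehicle, a level in the kidney markers' range. No member differed between the treated times, where 0.0615% (60 against 30 min), 0.0966% (90 against 60 min) and 0.25% (90 against 30 min) of all probe sets did. In each of these, 1 member had an unadjusted p under 0.05, beside 7.6%, 8.94% and 7.81% of all probe sets.

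**Figure D4:**
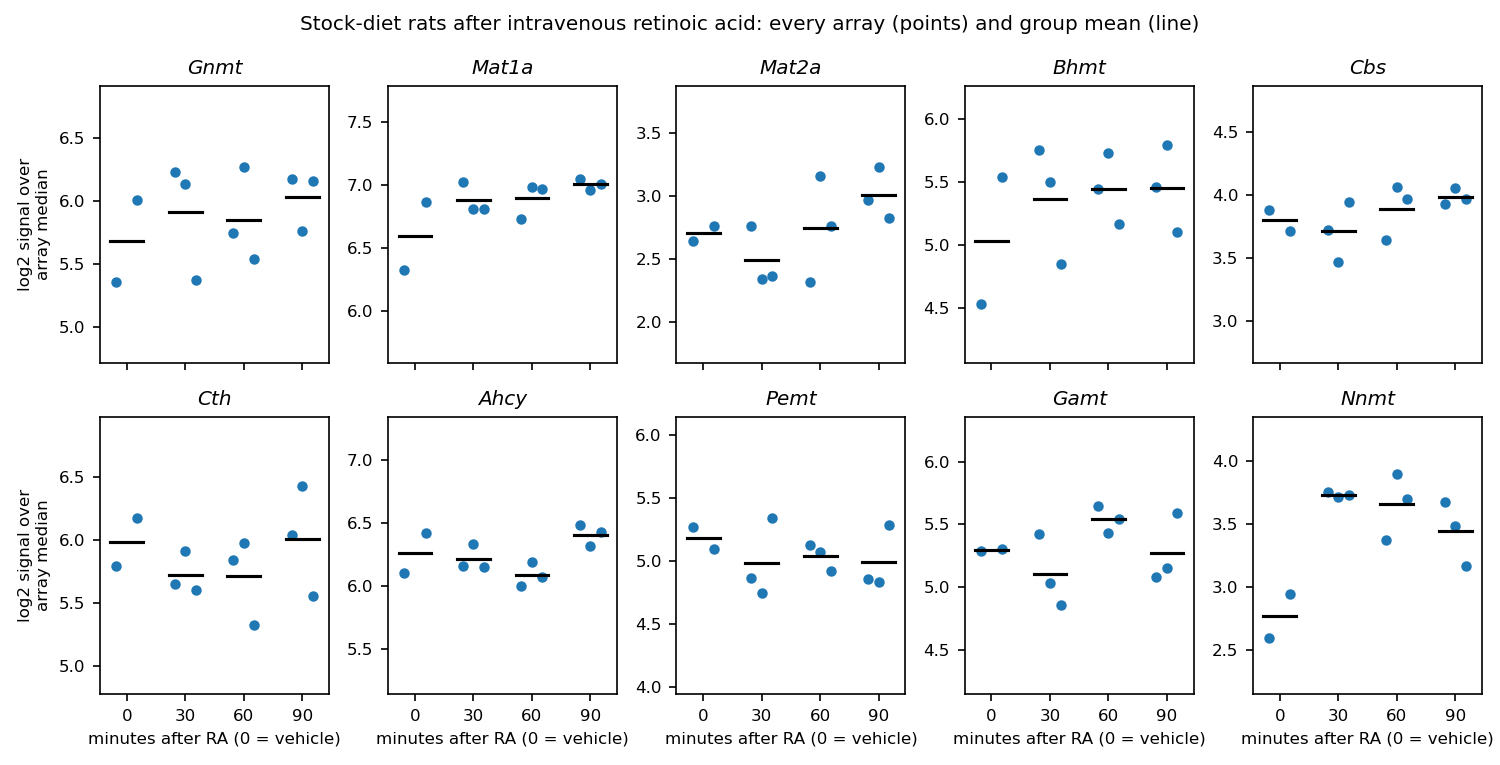
Log2 signal (array median = 0) of the 10 genes on all 11 arrays of the intravenous experiment, against minutes after the dose, with vehicle at 0 min. Points are single rats and short lines are group means. Nnmt is above both vehicle rats in all 9 treated rats, while Gnmt overlaps vehicle at each time.

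**Figure D5:**
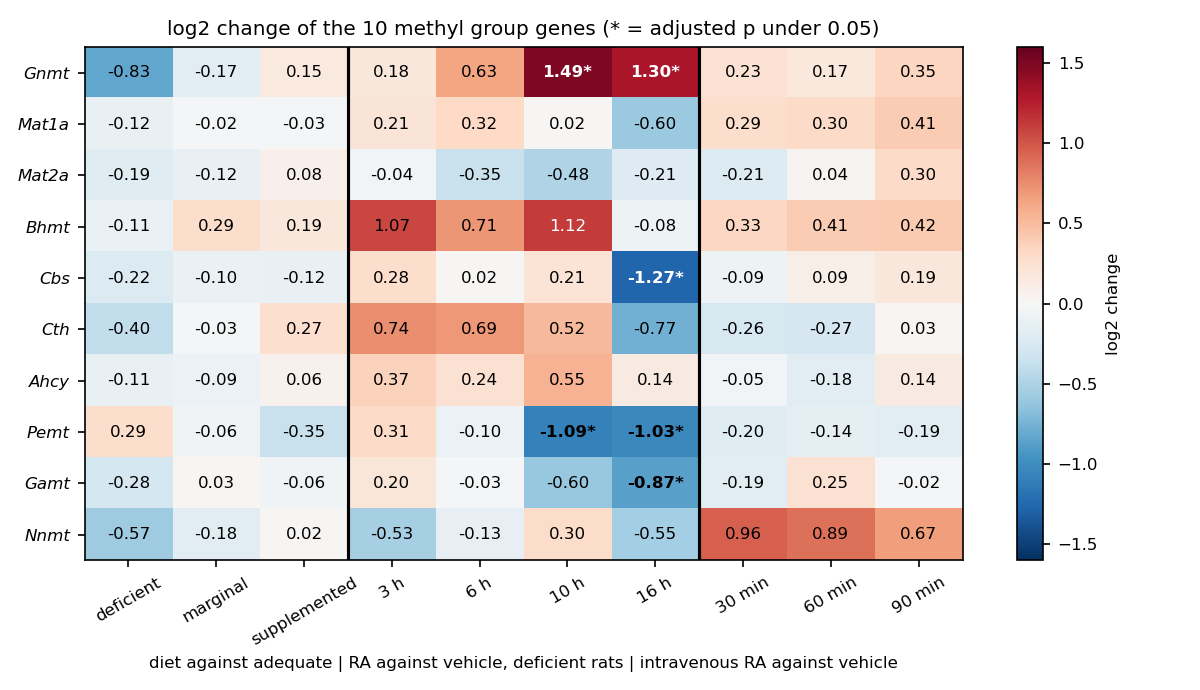
Log2 change of each gene in 10 comparisons as a colour map, with an asterisk where the adjusted p was under 0.05. Asterisks stand beside Gnmt and Pemt at 10 h and 16 h and beside Cbs and Gamt at 16 h. The intravenous times are shown singly, and no member has an asterisk there. The call of Nnmt over all intravenous times together is not part of the map.

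A wider list of 98 genes of folate, choline, creatine, polyamine, sulfur and nicotinamide metabolism and other methyltransferases set the members in their pathways, and 89 of these were on the array. In deficient against adequate livers 5 of 86 tested fell and 0 rose, where 1.08% of all probe sets were called, with a median of -0.22 beside -0.16 for all genes. Sardh, sarcosine dehydrogenase, which takes up the sarcosine that Gnmt makes, fell by 1.12 ± 0.20 (adjusted p = 0.00117), with a mean of 3.08 ± 0.61 in deficient (n = 5) and 4.29 ± 0.13 in adequate livers (SD, n = 6). Ethe1, a mitochondrial enzyme of hydrogen sulfide breakdown, fell by 1.07 (adjusted p = 0.000829), and Amd1, which decarboxylates S-adenosylmethionine for polyamine synthesis, fell by 1.11 (adjusted p = 0.00266). Mettl7b, a methyltransferase-like protein, fell by 1.44 (adjusted p = 0.00776) and Aldh1l1, a folate enzyme named after its values were seen, by 0.83. Without the 4 diet arrays named above, 1 of the 86 listed genes fell, Mettl7b, where 86 of 26219 probe sets were called. In run 1 alone 0 fell and 1 rose, Got1, where 46 of 24686 probe sets were called. After retinoic acid Sardh had log2 signals of 5.01, 4.91, 4.65 and 4.97 at 10 h, against 3.43, 4.53 and 3.83 with vehicle, which did not overlap, but the change of 0.96 ± 0.26 was not called (adjusted p = 0.109). After quantile normalization Sardh and Mettl7b were called higher at 10 h.

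In the retinoic acid course 2 of 88 listed genes fell at 10 h and 0 rose, where 0.488% of all probe sets were called, with a median of -0.29 beside -0.23 for all genes: Fpgs, which adds glutamates to folates (-1.50, adjusted p = 0.00881), and Got1, the cytosolic aspartate aminotransferase (-1.23, adjusted p = 0.014). At 16 h 16 of 88 fell and 0 rose, where 6.11% of all probe sets were called, with a median of -0.57 beside -0.49 for all genes. With 16 h replicate 3 alone, the median of the listed genes was -0.10, beside -0.17 for all genes. After quantile normalization 4 of 88 fell, Nampt and Dnmt1 among them, and 3 rose, where 323 of 28869 probe sets were called. Nampt, which makes nicotinamide mononucleotide from the nicotinamide that Nnmt would methylate, fell by 1.83 at 16 h (adjusted p = 0.000389). Its log2 signal was 2.11, 1.78 and 1.96 at 16 h, against 3.67, 3.73 and 3.92 with vehicle. Got1 fell by 1.76. Dnmt1, the maintenance DNA methyltransferase, fell (adjusted p = 0.00206), with log2 signals of -2.96, -3.59 and -3.93 at 16 h, against -0.34, 1.39 and 1.20 with vehicle. Its 16 h values lie in the range of the kidney markers and are not shown to be above background, so no size is given. For Nampt and Dnmt1 all 3 rats at 16 h were below all vehicle rats, replicate 3 included. In the intravenous experiment 1 of 82 listed genes was called at 60 min, where 0.387% of all probe sets were: Chka, choline kinase, which fell by 1.57 ± 0.28 (adjusted p = 0.0233). This call rests on 2 vehicle rats and ended without an intensity trend. Chka was not called at 30 min, at 90 min or over all times.

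Across the 47 arrays, after removal of each experiment's and run's mean, the genes whose signal ran most like that of Gnmt among 11651 were Eci3 (Pearson's r = 0.82), Gsto1 (0.78), Sardh (0.76), Rnase4 (0.76) and Gls2 (0.76). Those that ran most against it were Cyp8b1 (-0.62), Tspo (-0.59) and Dab1 (-0.57). Of the members Ahcy came nearest to Gnmt (r = 0.63), followed by Nnmt (0.59) and Bhmt (0.42), and Pemt was the farthest, at -0.39, the lowest of the 45 member pairs. The highest pairs were Pemt with Gamt (0.70), Cbs with Cth (0.68) and Bhmt with Cth (0.67). The likeness was uneven between experiments: in the intravenous one Eci3 stood at 0.42, Gsto1 at -0.17, Cyp8b1 at -0.03 and Dab1 at -0.11. Pemt stood at 0.08 to Gnmt in the diet experiment, -0.59 in the time course and -0.45 in the intravenous one, and Gamt at 0.75, -0.48 and 0.18. These values describe arrays that share groups and a scaling, and carry no test.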

How the data were processed

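Each array measured liver RNA of 1 rat on an Affymetrix rat array. The authors deposited log2 signals, which the values show to be centred on an array median of 0 with a floor per array. GCOS is named in the submitters' processing notes, and its version and further steps are not given in the sources used here. Groups came from the labels. Tests kept probe sets that, on at least 2 arrays, ranked over that array's 40th percentile, 27595 (diet), 28869 (time course) and 22763 (intravenous), with limma 3.58.1 (R 4.3.3; lmFit, eBayes with an intensity trend), Benjamini-Hochberg adjustment within each comparison and a threshold of 0.05, after the fit was tested on simulated data. The diet fit had the run as a term. Members and lists were chosen with earlier results of these data known. The named genes are the 10 members, at most 12 genes of the wider list by smallest adjusted p, and the 5 most and 3 least like Gnmt. Aldh1l1 lies outside this rule and was named after its values were seen. Alternatives were quantile normalization, no filter, no trend, array weights, probe set means, a replicate block, and left-out arrays. No arrays held identical values, and their number limits the precision. RefSeq sequences matched 9 of 10 members.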

Additional observations from a re-analysis of the deposited data

Results flagged for a closer look

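Of 40 groups of members' log2 signals tested for a value far from the others, 4 had one, where chance gives about 1 in 20. These were Gnmt in 10 h replicate 2 (7.862), Mat1a in 10 h replicate 3 (7.12), Mat2a in 10 h replicate 1 (1.21) and Ahcy in marginal replicate 2 (5.552).

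Changes that differed between times after the dose, by limma's test of the difference itself, were those of Cbs at 16 h against 10 h (-1.48), and at 16 h against 3 h those of Gnmt (1.12), Mat1a (-0.81), Bhmt (-1.15), Cbs (-1.55), Cth (-1.51), Pemt (-1.34) and Gamt (-1.07). Replicates 1 and 2 at 16 h, which stood apart from the other arrays, enter each of these. The cause was not tested.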

How the results depend on the processing

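Calls among all probe sets at 16 h were 1765 as reported, 40 with no trend and 3289 with array weights. They were 323 after quantile normalization and 215 without vehicle replicate 2. At 10 h they were 141, 2, 1296, 290 and 115 in the same order. For deficient against adequate livers they were 299 as reported, 426 with weights and 338 after quantile normalization. The number of members called also moved with the settings, so it is no result about the members alone, and the cause was not tested. Over all retinoic acid times against vehicle it was 2 with array weights, 2 after quantile normalization, 1 without vehicle replicate 2 and 2 without 16 h replicates 1 and 2, which leaves 1 rat at 16 h, against 0 as reported. At 10 h it was 4 with weights, 1 with probe set means, 0 with no trend, 4 after quantile normalization, 1 with the replicate block and 1 without vehicle replicate 2, against 2. At 16 h it was 0 with no trend, 2 after quantile normalization, 1 without vehicle replicate 2 and 1 without 16 h replicates 1 and 2, against 4. Between 10 h and 6 h weights, quantile normalization and leaving out those 16 h arrays gave 1 each. Between 16 h and 10 h it was 2 with weights, 0 with no trend, 2 after quantile normalization, 2 without vehicle replicate 2 and 0 without those 16 h arrays, against 1; between 16 h and 3 h it was 0, 2 and 1 with no trend, quantile normalization and those arrays left out, against 7. For deficient against adequate livers weights (Gnmt), quantile normalization (Pemt) and run 2 alone (Nnmt) gave 1 each, and quantile normalization gave 1 for marginal and for supplemented against deficient livers and for the trend. At 30 and at 60 min weights and quantile normalization gave 1 each; over all intravenous times no trend and the replicate block gave 0, against 1. Leaving out 1 array at a time gave 0 to 3 at 10 h, 0 to 7 at 16 h, 0 to 7 between 16 h and 10 h, 3 to 7 between 16 h and 3 h, 0 to 2 for deficient against adequate, 0 to 1 for all retinoic acid times, all intravenous times, marginal against deficient, 10 h against 6 h and 60 min, and 0 elsewhere. Gnmt turned its sign in marginal against adequate livers of run 2 alone (0.0045) and, with 1 array left out, over all intravenous times (-0.079 to 0.58), at 30 min (-0.10 to 0.56), 60 min (-0.16 to 0.50) and 3 h (-0.078 to 0.50), and in supplemented against adequate livers (-0.063 to 0.36). After removal of group means, arrays with the same replicate number correlated at -0.19 to 0.05. Their median was 0.002 in the time course and -0.003 in the intravenous experiment, beside 0.002 and 0.004 for other pairs, which shows no pairing there. In the diet experiment the run was removed too, and replicate numbers largely follow the run, so that check cannot judge pairing. The best match had the same number for 0 of 20 diet, 7 of 16 time course and 5 of 11 intravenous arrays, with no chance rate computed. The block ended the calls of Pemt at 10 h (-0.99, adjusted p = 0.14) and of Nnmt over all intravenous times (0.88, adjusted p = 0.0563) and no other call of a member against vehicle. Signal over the floor, from 10.0-fold on 1 array, limits low values.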
